A study of Mus musculus with 2 samples.

Results

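The Cyp4 genes encode fatty acid hydroxylases of the cytochrome P450 family, and 10 of them were followed in the livers of mice that received AAV-Wee1-AS or AAV-GFP. The members were taken by symbol from a list of Cyp4 genes, which are Cyp4a10, Cyp4a12a, Cyp4a12b, Cyp4a14, Cyp4a31, Cyp4a32, Cyp4f13, Cyp4f14, Cyp4f15 and Cyp4v3. They are 10 of the 45777 genes of the table, and all 10 passed the filter of at least 10 counts in at least 1 library.

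C57BL/6 N mice began a high-fat diet (HFD) at 7 weeks of age and were kept on it for 18 weeks. A viral vector was given by retro-orbital injection after 13 weeks of diet, 5 weeks before the end. It carried the lncRNA Wee1-AS in the AAV-Wee1-AS group and GFP in the AAV-GFP group, which is the control. Poly-A RNA of the liver was sequenced, and 1 library per group was analysed here, although the design text speaks of 4 livers. Both groups share the strain, the diet and the injection. The AAV-Wee1-AS vector is of the AAV9 serotype with a CMV promoter, which is not specific to hepatocytes. The sources used here do not give the sex of these mice or say whether animals were pooled, and Wee1-AS itself was not analysed here. With 1 library per group no spread between mice could be estimated. The differences therefore have no replicate check, and no p-value is given.

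CYP4 enzymes sit in the membrane of the endoplasmic reticulum and add a hydroxyl group to the far, omega end of a fatty acid, with electrons that reach them through NADPH-cytochrome P450 reductase. The omega-hydroxy acid is then oxidized to a dicarboxylic acid, which is shortened in peroxisomes, so that the pathway runs beside mitochondrial beta-oxidation. In mouse liver the Cyp4a genes are classical targets of the fatty acid receptor PPARA, whereas CYP4F enzymes are best known for hydroxylating leukotrienes and other eicosanoids.

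The catalytic heme of a P450 is held by a cysteine in a conserved loop, and the coding stretch for this loop shows how alike the members are at their active centre. In the GRCm38 genome, the same build as the mm10 of the deposited table, each member had exactly 1 match of 10 residues to the pattern F-x-x-G-x-x-x-C-x-G. The 30 coding bases are printed 5′ to 3′ on the strand of the gene, with the codon of the heme-binding cysteine in capitals.
Cyp4a10, Cyp4a31 and Cyp4a32: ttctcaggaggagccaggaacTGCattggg
Cyp4a12a and Cyp4a12b: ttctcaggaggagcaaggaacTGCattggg
Cyp4a14: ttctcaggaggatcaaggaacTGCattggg
Cyp4f13: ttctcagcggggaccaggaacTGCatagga
Cyp4f14: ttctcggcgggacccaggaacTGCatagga
Cyp4f15: ttctccgctgggcccaggaacTGCatagga
Cyp4v3: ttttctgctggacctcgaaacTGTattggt

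The stretch crosses the junction of 2 coding exons in every member. In Cyp4a10 it lies on the plus strand at chr4:115529502-115529518 in exon 11 and at chr4:115532531-115532543 in exon 12. In Cyp4f14 it lies on the minus strand at chr17:32906049-32906065 in exon 11 and at chr17:32905666-32905678 in exon 12. In Cyp4v3 it lies on the minus strand at chr8:45308380-45308407 in exon 10 and at chr8:45307107-45307108 in exon 11. On chromosome 4 it lies at chr4:115328986-115329002 and chr4:115331834-115331846 in Cyp4a12a, and at chr4:115435240-115435256 and chr4:115438057-115438069 in Cyp4a12b. It lies at chr4:115574950-115574966 and chr4:115577936-115577948 in Cyp4a31, at chr4:115614880-115614896 and chr4:115621434-115621446 in Cyp4a32 and, on the minus strand, at chr4:115489789-115489805 and chr4:115487299-115487311 in Cyp4a14. On chromosome 17 it lies at chr17:32925324-32925340 and chr17:32924942-32924954 in Cyp4f13, on the minus strand, and at chr17:32702398-32702414 and chr17:32702789-32702801 in Cyp4f15. The cysteine codon is TGC in 9 members and TGT in Cyp4v3, and the stretch cannot tell Cyp4a10 from Cyp4a31 and Cyp4a32, nor Cyp4a12a from Cyp4a12b.

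These 5 near-identical genes matter for the counts, since reads from a stretch that 2 genes share have to be divided between them. Over the whole coding sequence Cyp4a12a and Cyp4a12b were 98.5% identical, with 23 differing positions of 1524. Cyp4a10 was 97.2% identical to Cyp4a32 and 96.6% identical to Cyp4a31. Cyp4a31 and Cyp4a32 were 96.0% identical, and every other pair of members was at 80.0% or less. The 60-base windows of the coding sequence in which the paralogs differ most show where a read can be told apart, with differing bases in capitals. For Cyp4a12a and Cyp4a12b the window holds coding bases 630 to 689 in exon 6, at chr4:115326628-115326687 and chr4:115432881-115432940, and 4 positions differ.
Cyp4a12a: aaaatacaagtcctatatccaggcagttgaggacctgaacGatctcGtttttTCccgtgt
Cyp4a12b: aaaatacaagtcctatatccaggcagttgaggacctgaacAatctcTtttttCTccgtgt
For the other 3 genes it holds coding bases 200 to 259 in exon 2, at chr4:115519640-115519699 in Cyp4a10, chr4:115565020-115565079 in Cyp4a31 and chr4:115602270-115602329 in Cyp4a32, and 9 positions are not the same in all of them. All 5 genes lie on the plus strand.
Cyp4a10: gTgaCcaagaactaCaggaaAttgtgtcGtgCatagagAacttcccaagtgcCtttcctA
Cyp4a31: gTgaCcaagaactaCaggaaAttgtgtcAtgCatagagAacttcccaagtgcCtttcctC
Cyp4a32: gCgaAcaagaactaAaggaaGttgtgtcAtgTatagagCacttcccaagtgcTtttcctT

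Stretches of 100 bases, the length of a read here, that also occur in a transcript of another gene made up 35.8% of Cyp4a12a and 36.2% of Cyp4a12b, all shared between the 2 genes. The share was 20.1% in Cyp4a32, 12.7% in Cyp4a10 and 8.22% in Cyp4a31, and 5.77% of Cyp4v3 occurred in the predicted gene Gm45753. No such stretch was found in Cyp4a14, Cyp4f13, Cyp4f14 or Cyp4f15. The values of Cyp4a12a against Cyp4a12b and of Cyp4a10, Cyp4a31 and Cyp4a32 are therefore uncertain one by one, and their sums are given too.

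The estimated counts of all genes added up to 55466182 with AAV-GFP and 48079335 with AAV-Wee1-AS. The 10 members held 116020 and 93549 of them, which is 0.209% and 0.195% of the library. On the TPM scale, which divides by transcript length and can be compared between genes, the members added up to 1496 TPM with AAV-GFP and 1402 TPM with AAV-Wee1-AS. The tissue label was met by its markers, since the 10 hepatocyte markers added up to 119285 and 115814 TPM. Of 8 kidney markers, 7 were at 0 in both libraries, and the other, Slc12a3, had 7 and 13 counts. Kidney is the other organ known for strong Cyp4a expression.

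Scaled for library size, the summed Cyp4 counts with AAV-Wee1-AS were 0.968 times those with AAV-GFP, a log2 ratio of -0.05 with a 95% counting interval of -0.06 to -0.03. Intervals here are exact (Clopper-Pearson), treat the estimated counts as counted reads and cover counting error only. None of the 10 members had a ratio above 2 or below 0.5, where 31.0% of the 15857 genes kept did. Among the 4623 genes with at least the 2163 summed counts of Cyp4a31, the least abundant member, 17.1% were past these limits. The log2 ratios of the members ran from -0.40 to 0.40, a range that held 29.9% of all genes, and their median of -0.04 lay beside -0.02 for all genes and -0.20 for the 4623. The median size of the log2 ratio, without its sign, was 0.24 over the members, 0.67 over all genes and 0.54 over the 4623.

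The members did not move together within this narrow range. Cyp4v3, Cyp4a12b, Cyp4f14, Cyp4a32 and Cyp4f15 had log2 ratios above 0, and Cyp4a10, Cyp4a31, Cyp4a12a, Cyp4a14 and Cyp4f13 had log2 ratios below 0, beside 49.5% of all genes above 0 and 50.5% below. Scaling by the upper quartile moved the median of all genes from -0.02 to -0.22, and Cyp4a32, Cyp4f14 and Cyp4f15 were then below 0 as well. Counting intervals lay wholly above a ratio of 1 for 5 members and wholly below it for 5, and the same was true of 39.1% and 38.0% of all genes. The split into higher and lower members was thus close to that of the genes at large. A lower value in bulk liver can come from fewer cells of a type or from less RNA per cell, and these cannot be told apart here.

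**Figure D1:**
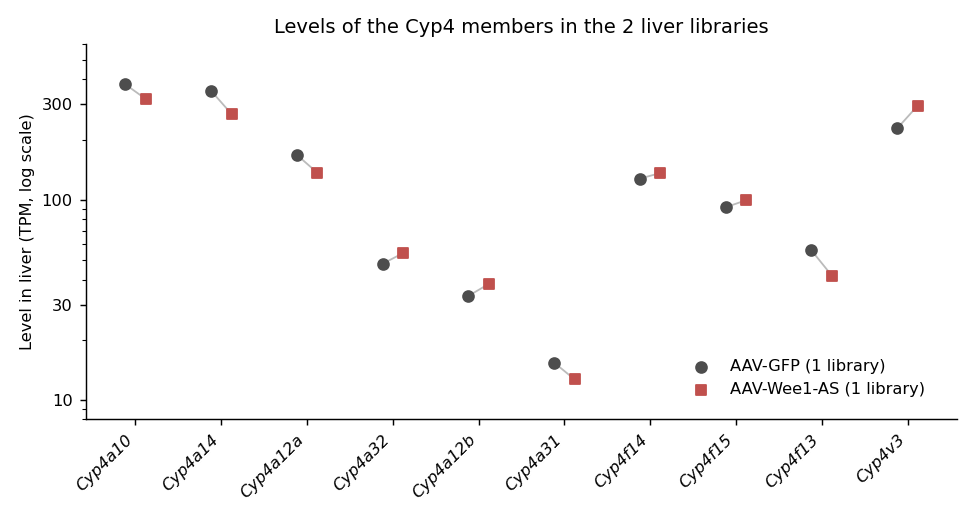
Level of each Cyp4 member in TPM on a log scale, with 1 point for the AAV-GFP library and 1 for the AAV-Wee1-AS library, and a line joining the 2. Cyp4a10 is the most abundant member in both libraries at 378 and 319 TPM, Cyp4a31 is the least abundant at 15.4 and 12.7 TPM, and Cyp4v3 passes Cyp4a14 in the AAV-Wee1-AS library. No trend with GC content or length is removed.

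The Cyp4a genes hydroxylate medium- and long-chain fatty acids such as laurate and arachidonate. They lie together on chromosome 4, within the 323 kb of chr4:115299046-115622507. The 6 of them held 75119 counts with AAV-GFP and 52753 with AAV-Wee1-AS. Their sum gave a log2 ratio of -0.25 (-0.26 to -0.23), and 4 of the 6 were lower with AAV-Wee1-AS.

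Cyp4a10 (chr4:115518287-115533649), the member with the highest level, had 25952 counts and 378 TPM with AAV-GFP and 18566 counts and 319 TPM with AAV-Wee1-AS. Its log2 ratio was -0.22 (-0.25 to -0.19). Cyp4a14 (chr4:115486200-115496158), known as the Cyp4a gene most sharply induced by fasting and by PPARA agonists, had 28797 and 18642 counts. Its level went from 351 to 268 TPM and its log2 ratio was -0.36 (-0.39 to -0.34), the lowest of the Cyp4a genes. Both strongly PPARA-driven genes were thus lower with AAV-Wee1-AS, each by under 2-fold, and Cyp4a14 fell behind Cyp4v3 in level among the members. That order is of TPM with no trend removed. Cyp4v3 had a log2 ratio of 0.40, and of -0.44 with the trends with GC content and length removed, where Cyp4a14 was at -0.86.

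Cyp4a12a (chr4:115299046-115332815), a male-predominant enzyme that makes 20-HETE from arachidonate, had 13393 counts and 168 TPM with AAV-GFP and 9227 counts and 136 TPM with AAV-Wee1-AS. The log2 ratio was -0.27 (-0.31 to -0.24). Its near-copy Cyp4a12b (chr4:115411624-115439034) was at a lower level, with 2612 and 2542 counts and 33.1 and 38.0 TPM, and its log2 ratio of 0.22 (0.15 to 0.30) had the opposite sign. That difference in sign was lost with the trends with GC content and length removed. Cyp4a12b was then at -0.14 and Cyp4a12a at -0.63. Cyp4a12b made up 16.3% (exact 95% interval, 15.8 to 16.9%) of the counts of the pair with AAV-GFP and 21.6% (20.9 to 22.4%) with AAV-Wee1-AS. Added up, the pair had 16005 and 11769 counts and a log2 ratio of -0.18 (-0.21 to -0.15). How far the division of shared reads set the 2 signs was not tested.

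Cyp4a31 (chr4:115563627-115579015) was the member with the lowest level, at 15.4 TPM from 1273 counts and 12.7 TPM from 890 counts, with a log2 ratio of -0.25 (-0.38 to -0.13). Cyp4a32 (chr4:115600927-115622507) had 3092 and 2886 counts and 47.9 and 54.2 TPM, and its log2 ratio was 0.16 (0.09 to 0.24). Together with Cyp4a10, their close relative, they had 30317 and 22342 counts and a log2 ratio of -0.18 (-0.20 to -0.15). Without Cyp4a10, the 2 genes added up to 4365 and 3776 counts and a log2 ratio of 0.05 (-0.01 to 0.12), an interval that holds a ratio of 1.

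The Cyp4f genes lie within 262 kb at chr17:32685631-32947415. Their 3 members added up to 19193 counts with AAV-GFP and 16876 with AAV-Wee1-AS, and their log2 ratio of 0.08 (0.05 to 0.11) lay above 0. That sign depends on the scaling, since the sum was at -0.13 with the upper quartile and at -0.014 with the deposited FPKM, and its size does too, at 0.53 with the trends removed, while the Cyp4a sum was below 0 under each setting tried. Cyp4f14 (chr17:32903357-32917376), which hydroxylates leukotriene B4 and the side chain of vitamin E, had 9592 and 8976 counts and 128 and 136 TPM. Its log2 ratio was 0.17 (0.13 to 0.21). The raw count is lower with AAV-Wee1-AS and the ratio higher than 1, since that library is the smaller one.

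Cyp4f15 (chr17:32685631-32703352) had 6464 and 5921 counts and 91.8 and 99.6 TPM, with a log2 ratio of 0.14 (0.09 to 0.19). Cyp4f13 (chr17:32924688-32947415) had 3137 and 1979 counts and 55.9 and 41.7 TPM. Its log2 ratio of -0.40 (-0.48 to -0.32) was the lowest of all members and on the other side of 0 from Cyp4f14 and Cyp4f15, a difference in sign that was lost with the trends with GC content and length removed, where Cyp4f13 was at 0.24.

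Cyp4v3 (chr8:45305801-45333163) is the mouse counterpart of human CYP4V2, whose loss causes Bietti crystalline dystrophy of the retina. It had 21708 counts and 227 TPM with AAV-GFP and 23920 counts and 296 TPM with AAV-Wee1-AS. This was the one member with more unscaled counts in the smaller library, and its log2 ratio of 0.40 (0.38 to 0.43) was the highest of the members. Neither its sign nor its rank held with the trends with GC content and length removed. Cyp4f14 was then highest at 0.59, and Cyp4v3 was at -0.44. For Cyp4v3 the GC content and length came from a transcript model of 3808 bases, whereas the counted model has 2898 bases. How far this moved its value was not tested. By TPM, with no trend removed, Cyp4v3 came after Cyp4a10 and Cyp4a14 with AAV-GFP and after Cyp4a10 alone with AAV-Wee1-AS.

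**Figure D2:**
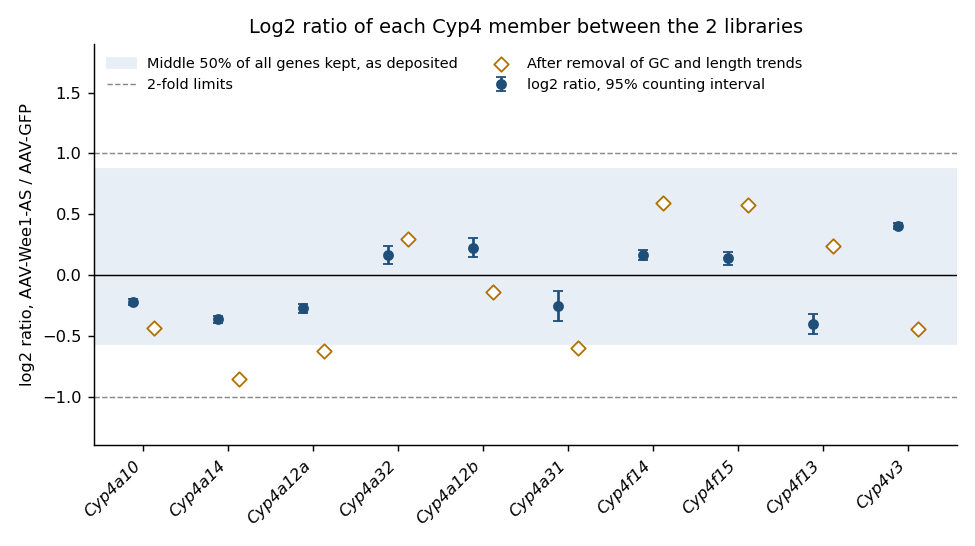
Log2 ratio of AAV-Wee1-AS over AAV-GFP for each member, with the 95% counting interval (filled points) and after the trends with GC content and length were removed (open diamonds). The shaded band is the middle 50% of all genes before removal, from -0.56 to 0.87, and the dashed lines are the 2-fold limits, which no member passes on either scale.

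In the counts as deposited, Cyp4a genes made up less and Cyp4v3 more of the Cyp4 total with AAV-Wee1-AS. The 6 Cyp4a genes held 64.7% of the counts of the members with AAV-GFP and 56.4% with AAV-Wee1-AS. Cyp4v3 went from 18.7% (exact 95% interval, 18.5 to 18.9%) to 25.6% (25.3 to 25.9%). Cyp4a14 had the largest drop, from 24.8% (24.6 to 25.1%) to 19.9% (19.7 to 20.2%). Shares of TPM moved the same way, with Cyp4v3 at 15.2% and 21.1%, the Cyp4a genes at 66.4% and 59.1% and the Cyp4f genes at 18.4% and 19.8%. The gain of Cyp4v3 did not hold once the trends with GC content and length, described next, were removed from each member. On that scale, in sums added after seeing the data, the AAV-Wee1-AS shares were 16.9% for Cyp4v3, 29.4% for the Cyp4f genes, which held 16.5% with AAV-GFP, and 53.7% for the Cyp4a genes.

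**Figure D3:**
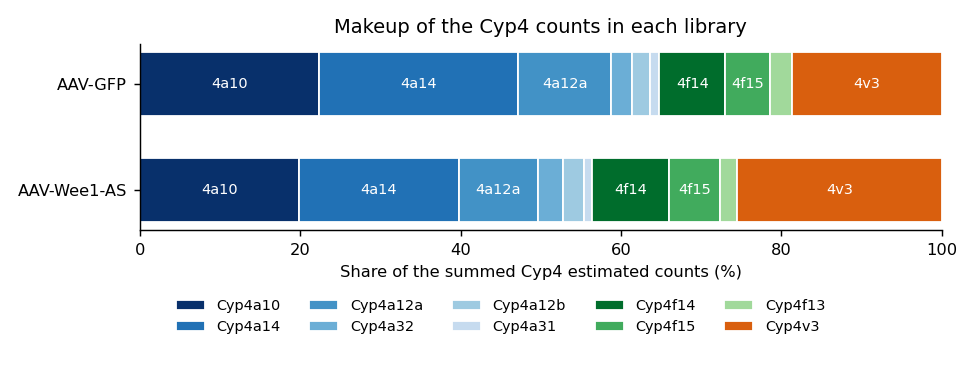
Share of each member in the summed estimated counts of the 10 Cyp4 members, in percent, with 1 bar per library (blue for Cyp4a, green for Cyp4f and orange for Cyp4v3). The Cyp4a genes together fill 64.7% of the AAV-GFP bar and 56.4% of the AAV-Wee1-AS bar, and Cyp4v3 fills 18.7% and 25.6%, before removal of any trend with GC content.

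The direction of several members changed once the trends with length and GC content were both removed. Across the 15109 genes with a GENCODE transcript, the log2 ratio fell with GC content, with a Spearman coefficient of -0.67 as a description across genes, which are not independent replicates. It rose with transcript length, with a coefficient of 0.34, and the share of each trend in a member's value was not tested. The members span the GC trend, from 44.3% GC in Cyp4v3 to 54.9% in Cyp4f13, with a median of 49.8% over all genes. After removal of the trends with GC content and length, the log2 ratio of Cyp4v3 was -0.44, that of Cyp4f13 was 0.24 and that of Cyp4a12b was -0.14, each with its sign changed. The other 7 members kept their sign. The value of Cyp4v3 rests on a model of 3808 bases, longer than the 2898 bases of the counted one.

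On this scale the log2 ratio of the summed counts was -0.56 for the Cyp4a genes, 0.53 for the Cyp4f genes and -0.30 for all members. The 3 Cyp4f genes were all above 0, at 0.59 in Cyp4f14, 0.57 in Cyp4f15 and 0.24 in Cyp4f13. Of the Cyp4a genes, 5 were below 0, at -0.86 in Cyp4a14, -0.63 in Cyp4a12a, -0.60 in Cyp4a31, -0.43 in Cyp4a10 and -0.14 in Cyp4a12b. Cyp4a32 was at 0.30, with a GC content taken from a transcript model of 1530 bases, 3 more than its coding sequence. In all, 4 members were above 0 and 6 below, beside 7558 of 15109 genes above 0, and none was past 2-fold, with 15.9% of genes past it. The median of the members was -0.29. Whether the trend comes from the libraries or from the livers cannot be told apart with 1 library per group.

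Differences were larger for single transcripts than for whole genes. The table lists 36 transcripts of the members, 17 curated and 19 predicted by RefSeq, and all 36 passed the count filter. Of these, 16 were past 2-fold, beside 54.5% of all transcripts kept. Of the 16, 12 were above a ratio of 2, as 31.7% of all transcripts were, and 4 were below 0.5, as 22.7% were. Only 8 of the 16 had at least 100 counts in a library, and 12 were predicted models. Transcripts of a gene overlap, so their estimated counts are a division of shared reads.

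In Cyp4a31 the curated variant 1 had 958 counts with AAV-GFP and 404 with AAV-Wee1-AS, and the predicted variant X1 had 292 and 486. Variant 1 thus made up 75.3% of the gene in the first library and 45.4% in the second, and variant X1 made up 22.9% and 54.6%. Both models end at the same base, and variant X1 starts slightly further upstream. With curated transcripts only, the log2 ratio of Cyp4a31 was -1.01, past 2-fold. Variant 2 had 23 counts with AAV-GFP and 0 with AAV-Wee1-AS, at least 6.39-fold lower against a floor of 3 counts per library.

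In Cyp4a32 the predicted non-coding variant X1 had 1792 and 1176 counts, and its share of the gene was 58.0% and 40.7%. The curated transcript, with 742 and 955 counts, made up 24.0% and 33.1%. Variant X3 went from 10.5% to 7.83%, and variant X5 from 3.59% to 7.31%. The log2 ratio of the curated transcript was 0.63 (0.49 to 0.77), beside 0.16 for the gene.

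In Cyp4f14 the curated variant 1 held most of the counts, 8494 and 6930, and its log2 ratio was -0.03 (-0.08 to 0.02). The predicted variant X1 of 3745 bases, which ends further downstream, had 536 and 1149 counts, with a log2 ratio of 1.36 (1.21 to 1.51). It made up 5.59% of the gene with AAV-GFP and 12.8% with AAV-Wee1-AS. In this division of shared reads, the counts that put Cyp4f14 above 0 were those of its minor variants, while its main transcript was near 0.

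Cyp4f15 was divided almost evenly between variant 2, with 3380 and 2883 counts, and variant 1, with 3082 and 2992. Their log2 ratios were 0.03 (-0.04 to 0.11) and 0.22 (0.15 to 0.29). In Cyp4f13 the curated transcript held 90.2% and 92.7% of the counts, with a log2 ratio of -0.36 (-0.45 to -0.28). The curated transcript of Cyp4a14 held 98.4% and 98.1%, and Cyp4a10, Cyp4a12a, Cyp4a12b and Cyp4v3 each have 1 transcript in the table. The 2 largest members by level were thus measured on essentially a single model each.

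**Figure D4:**
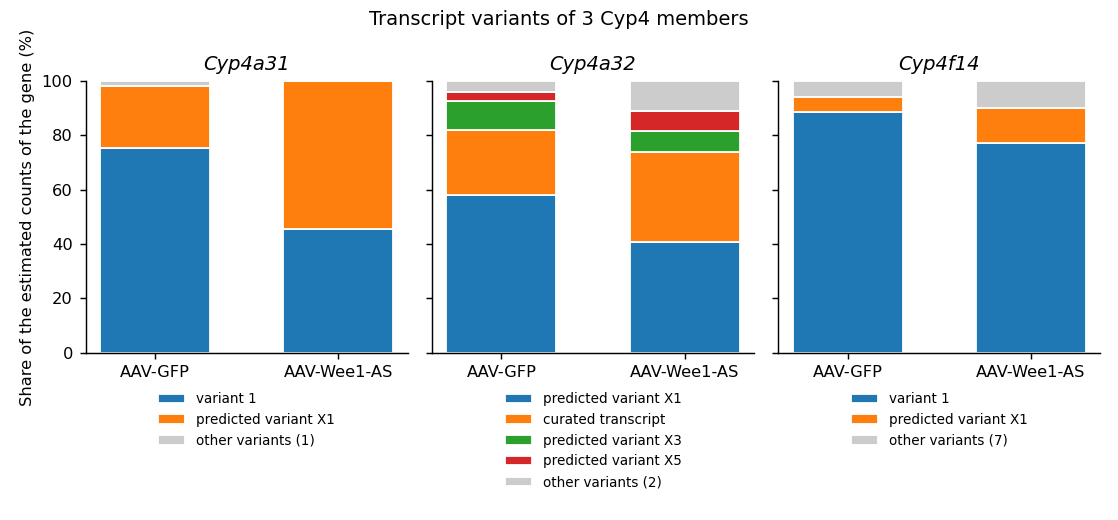
Share of the estimated counts of Cyp4a31, Cyp4a32 and Cyp4f14 held by their RefSeq transcript variants, in percent, with 1 bar per library and the variants not named in the text joined in grey. Variant 1 of Cyp4a31 goes from 75.3% to 45.4%, the predicted variant X1 of Cyp4a32 from 58.0% to 40.7% and variant 1 of Cyp4f14 from 88.6% to 77.2%.

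The rest of the Cyp4 family was at lower levels than the members, apart from Cyp4b1, which was near Cyp4a31, above it with AAV-GFP and below it, at 10.8 TPM, with AAV-Wee1-AS. Of 14 other Cyp4 genes and pseudogenes in the table, 7 had 0 counts in both libraries and 6 passed the count filter. The list as a whole added up to 27.5 TPM with AAV-GFP and 18.2 TPM with AAV-Wee1-AS. Of the 6, 2 were higher and 4 lower, 1 of them below a ratio of 0.5, beside 8.71% of all genes, and none with the trends removed. Cyp4b1, the neighbour of the Cyp4a cluster and best known as a lung enzyme, had 1074 and 579 counts and a log2 ratio of -0.63 (-0.78 to -0.48). Cyp4f18, which is typical of neutrophils, had 123 and 32 counts and a log2 ratio of -1.62 (-2.29 to -1.11), and the neutrophil markers S100a9 and S100a8 had 116 and 38 counts and 52 and 32 counts, the latter with an interval that holds a ratio of 1 (-1.12 to 0.23). The part of leukocytes in the Cyp4f18 value was not tested. Cyp4f16 had 253 and 108 counts, with a log2 ratio of -0.95 (-1.30 to -0.63), and Cyp4f17 had 415 and 377, with 0.12 (-0.08 to 0.33).

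The Cyp4f genes share their stretch of chromosome 17 with zinc finger genes of very different ratios. Zfp871, Zfp799, Zfp870, Zfp472 and Zfp952, between the members or within 100 kb of them, had log2 ratios from 1.11 to 2.65, beside -0.40 to 0.17 for the Cyp4f genes. Their GC content was 40.0 to 44.5%, and with the trends removed their log2 ratios ran from -0.37 to 1.29.

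The genes listed for electron transfer had a mixed direction. Of the 6 listed, 4 were higher and 2 lower and the median log2 ratio was 0.37. Above a ratio of 2 there was 1 gene, beside 22.2% of all genes. Cyb5b, a cytochrome b5, had 12911 and 22460 counts and a log2 ratio of 1.06 (1.03 to 1.09), and 0.39 with the trends removed. Por, the reductase that supplies the CYP4 enzymes and is named here outside the rule after its value was seen, had 24838 and 29254 counts and a log2 ratio of 0.50 (0.48 to 0.52), and 1.23 with the trends removed. The 3 genes with most counts were Cyb5r3 at -0.41 (-0.44 to -0.39), Pgrmc1 at 0.68 (0.66 to 0.70) and Cyb5a at 0.25 (0.22 to 0.27). With the trends removed Cyb5r3 was at 0.20, Pgrmc1 at 0.11 and Cyb5a at 0.44.

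The steps after omega-hydroxylation differed little in sum. The 8 listed alcohol and aldehyde dehydrogenases added up to 4264 and 3778 TPM, and of the 7 kept 4 were higher and 3 lower, with a median log2 ratio of 0.06. Adh1, the main liver alcohol dehydrogenase, had a log2 ratio of -0.28 (-0.29 to -0.27), and Aldh3a2, the fatty aldehyde dehydrogenase, had 0.06 (0.04 to 0.08). With the trends removed Adh1 was at 0.002 and Aldh3a2 at -0.10. Of the 7, 1 was below a ratio of 0.5, beside 8.71% of all genes, and 0 were with the trends removed. Of 16 genes for the peroxisomal shortening of dicarboxylic acids, 10 were higher and 6 lower, with a median of 0.15, and 3 were above a ratio of 2, where 22.2% of genes were. These 3 were Crot at 1.48 (1.44 to 1.52), Abcd2 at 1.43 (1.26 to 1.60) and Abcd3, the peroxisomal importer of dicarboxylic acids, at 1.33 (1.30 to 1.36). With the trends removed none of the 16 was past 2-fold, and Crot was at 0.73, Abcd3 at 0.56 and Abcd2 at -0.04.

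Ppara, the receptor that drives Cyp4a10 and Cyp4a14, was itself higher with AAV-Wee1-AS. It had 15638 counts and 72.4 TPM with AAV-GFP and 22836 counts and 125 TPM with AAV-Wee1-AS, a log2 ratio of 0.81 (0.78 to 0.84), and 1.00 with the trends removed. Rxra, its binding partner, had a log2 ratio of -0.32 (-0.34 to -0.29), and 0.06 with the trends removed. Over 11 genes for PPARA, its partner receptors and cofactors, 7 were higher and 4 lower. Of them 5 were above a ratio of 2 and 1 below 0.5, beside 22.2% and 8.71% of all genes, and with the trends removed 2 and 0 were.

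The known PPARA targets outside the Cyp4 family were mixed. Of 26 such genes, 17 were lower and 9 higher, with a median log2 ratio of -0.20. The median was -0.02 over all genes and -0.20 over the 4623 with at least the summed counts of Cyp4a31, a level that not all genes of the list reach. Past 2-fold there were 4 lower and 1 higher, beside 8.71% of genes below 0.5 and 22.2% above 2. The lipid droplet genes Cidea, with 1784 and 192 counts, and Cidec, with 7683 and 1236, had the lowest log2 ratios of the list, -2.94 (-3.17 to -2.74) and -2.37 (-2.46 to -2.29). The median with the trends removed was -0.18, and 3 genes were then below 0.5 and none above 2.

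**Figure D5:**
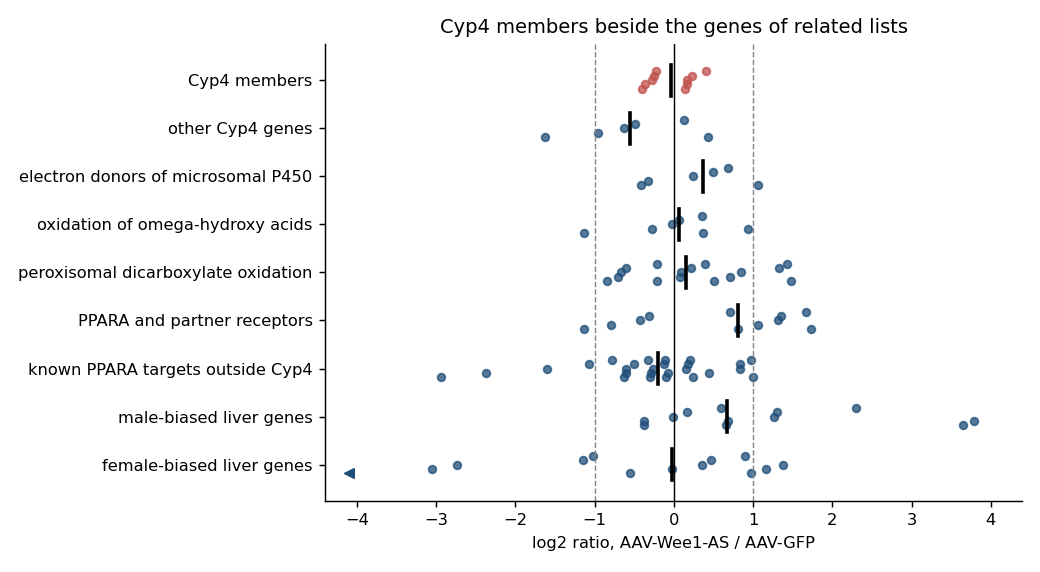
Log2 ratio of AAV-Wee1-AS over AAV-GFP for every gene kept in each list, with 1 point per gene, black bars for the list medians and dashed lines at the 2-fold limits. The Cyp4 members (red) span -0.40 to 0.40 with no trend removed, and -0.86 to 0.59 with the trends removed, which is not drawn, and a triangle marks Cyp3a44, beyond the axis at 0 counts in the AAV-Wee1-AS library.

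Cyp4a12a and Cyp4a12b are known as male-predominant genes, so sex-biased liver genes were set beside them. Of 12 other male-biased genes, 9 were higher and 3 lower with AAV-Wee1-AS, with a median log2 ratio of 0.67, and 5 were above a ratio of 2, beside 22.2% of all genes. With the trends removed 5 were above 2 and 1, Mup20, was below 0.5. Mup20, a major urinary protein gene with 165379 and 106259 counts, had a log2 ratio of -0.37, and -1.47 with the trends removed. Hsd3b5 had 228 and 2638 counts and Slco1a1 had 668 and 7028, while Cyp4a12a was at -0.27 and Cyp4a12b at 0.22. With the trends removed Cyp4a12a was at -0.63 and Cyp4a12b at -0.14. Of 13 female-biased genes kept, 6 were higher and 7 lower. Below a ratio of 0.5 there were 5, beside 8.71% of all genes, and above 2 there were 2, Fmo2 at 1.38 (1.17 to 1.61) and Prom1, which had 23 and 45 counts and is named outside the rule. With the trends removed 4 were below 0.5 and none above 2. Of the lower genes Cyp2b13 had 4219 and 526 counts, and Cyp3a44 had 330 counts with AAV-GFP and 0 with AAV-Wee1-AS, at least 91.6-fold lower. All 4 listed genes of the Y chromosome were detected in both libraries, with 52 to 252 counts with AAV-GFP and 322 to 974 with AAV-Wee1-AS, and Xist was listed at 0 in both. Their log2 ratios ran from 1.76 to 2.84, so that all 4 Y genes were above a ratio of 2, beside 22.2% of all genes. With the trends removed they ran from 0.34 in Kdm5d to 1.29 in Ddx3y, and 2 were above 2. The part of these differences in the values of Cyp4a12a and Cyp4a12b was not tested.

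Markers of other liver cells also differed between the libraries. The 6 erythroid markers were all lower, with a sum of 3357 and 1789 TPM, and 2 of them were above 0 with the trends removed. The 8 Kupffer cell and macrophage markers added up to 428 and 332 TPM, a drop carried by Cd5l at 208 and 121 TPM, while 4 were higher and 4 lower. Of these, 3 were above a ratio of 2, which were Vsig4, Marco and Timd4, and none was below 0.5, beside 22.2% and 8.71% of all genes. With the trends removed, 1 was above 2. The 8 stellate cell markers added up to 168 and 141 TPM, with 4 higher and 4 lower. Col1a1 at -2.32 and Col3a1 at -2.03 were lower, and with the trends removed both were at -2.01. Lrat at 1.46 and Rgs5 at 1.58 were higher, and with the trends removed they were at 0.055 and 0.28. The sum was 176 and 140 TPM for 8 endothelial markers, 3 higher and 5 lower. It was 44.1 and 37.9 TPM for 6 cholangiocyte markers, with 2 of the 5 kept higher and 3 lower, and 15.6 and 8.28 TPM for 8 lymphocyte and neutrophil markers, of which Ly6g was at 0 in both. Of the 7 of these that were kept, 1 was higher and 6 lower, with a median log2 ratio of -0.95. Below 0.5 there were 3, and above 2 there was 1, Ms4a1, with 0 and 23 counts. With the trends removed 2 were below 0.5 and 1 above 2. The hepatocyte markers, whose cells express the Cyp4 members, were 2 higher and 8 lower, with a median log2 ratio of -0.21, and 8 of 10 were above 0 with the trends removed. The part of cell makeup in the Cyp4 ratios was not tested.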

How the data were processed

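RNA of liver was sequenced as stranded poly-A libraries, read in pairs of 100 bases, 1 library per group. The submitters' processing notes name Trimmomatic 0.38, HISAT2 2.1.0, SAMtools 1.9, StringTie 2.1.3b and the mm10 build, without their roles. The authors deposited 1 table of 129299 RefSeq transcripts with, for each library, estimated counts (not normalized), FPKM and TPM. Reads were not aligned or counted again.

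Counts were summed per symbol. A gene was kept where either library held 10 counts or more. Libraries were scaled by TMM (edgeR 4.0.16 in R 4.3.3, factors 1.02 in AAV-GFP, 0.980 in AAV-Wee1-AS), and log2 ratios were taken with a prior count of 2. Count models were not fitted, since 1 library per group leaves no spread. Exact 95% intervals of the ratio came from both counts, and 3 counts per library were taken as the floor. Trends with GC content and length, from the longest GENCODE M21 transcript, were removed by lowess (span 0.3, 5 cycles). Coding sequences came from the GENCODE M21 annotation of GRCm38. Steps were tested on simulated data. Software was Python 3.11.15 with scipy 1.17.1, statsmodels 0.14.6, biopython 1.88, pandas 2.3.3, numpy 2.4.6 and matplotlib 3.10.9.

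All members were named, with up to 4 transcripts each that held at least 5% of the counts of the gene. Other Cyp4 genes and genes within 100 kb of the Cyp4a and Cyp4f clusters were named from 100 counts in a library. In other lists the rule took the 3 genes with most counts and up to 4 with intervals wholly past 2-fold, of which those nearest to the members' roles are given. The members and lists were chosen with earlier results of these data known. Alternatives were other scalings (DESeq2 1.42.0 size factors among them), filters, prior counts, the deposited FPKM and TPM, trend removal, curated transcripts, single transcripts and summed paralogs.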

Additional observations from a re-analysis of the deposited data

How the results depend on the processing

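The number of members past 2-fold was 0 under every alternative run at gene level but one: with curated transcripts only it was 1, Cyp4a31 at -1.01. With transcripts in place of genes it was 16 of 36, and the median over them was 0.32. The log2 ratio of the summed Cyp4 counts stayed below 0. It was -0.10 with library totals, -0.072 with DESeq2 size factors, -0.25 with the upper quartile, -0.10 without the 20 most abundant genes, -0.094 with TPM, -0.12 with FPKM, -0.064 with curated transcripts and -0.30 with the trends removed. The upper quartile moved the median of all genes from -0.02 to -0.22 and put Cyp4a32 (-0.04), Cyp4f14 (-0.04) and Cyp4f15 (-0.07) below 0. The sum of the Cyp4f genes, at 0.078, was at -0.13 with the upper quartile, -0.014 with FPKM and 0.53 with the trends removed, in alternatives added after seeing the data. The share of all genes past 2-fold was 15.1% without a count filter, 12.9% with TPM, 8.43% with FPKM, 15.9% with the trends removed and 54.5% for transcripts. A pseudocount of 1 was added to TPM and FPKM, which holds low genes near 0. Single transcripts give no value for the summed counts. No paired analysis was possible because each group has 1 library, and for the same reason no library could be left out. Counting error is small for the members, from 890 counts upward in a library, and the spread between mice is the quantity these data do not hold.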

Other observations

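CYP4 enzymes share arachidonate with epoxygenases and lipoxygenases. Of 10 genes of that group that were kept, 5 were higher and 5 lower with AAV-Wee1-AS, with a median log2 ratio of 0.01. The epoxygenase gene Cyp2j5 had 15769 and 28094 counts and a log2 ratio of 1.10 (1.07 to 1.12), and Cyp2c29 had 29335 and 46050 counts and 0.91 (0.89 to 0.94). Ephx1, an epoxide hydrolase, had 63030 and 25420 counts and a log2 ratio of -1.05 (-1.07 to -1.02), while Ephx2, the soluble epoxide hydrolase that acts on arachidonate epoxides, was at 0.12 (0.11 to 0.14). With the trends removed Cyp2j5 was at 0.17, Cyp2c29 at -0.24 and Ephx1 at -0.52, so that neither Cyp2j5 nor Ephx1 was past 2-fold.

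Genes of both liver zones were split between higher and lower. Of 13 pericentral genes, 8 were higher and 5 lower, with a median log2 ratio of 0.21, and the same counts held for 13 periportal genes, with a median of 0.02. With the trends removed the medians were 0.14 and 0.49, and 8 of 13 pericentral and 10 of 13 periportal genes were above 0. Glul, the classical pericentral gene, was at -0.08 (-0.09 to -0.06) and Cyp2e1 at 0.21 (0.21 to 0.22). With the trends removed Glul was at -0.08 and Cyp2e1 at -0.05. Above a ratio of 2 there were 2 pericentral and 2 periportal genes, beside 22.2% of all genes. The pericentral ones were Slc1a2 at 1.54 (1.49 to 1.59) and Cyp2c37 at 1.21 (1.15 to 1.26). The periportal ones were Cps1, an enzyme of the urea cycle, at 1.21 (1.19 to 1.22) and Ctsc at 1.19 (1.11 to 1.27). With the trends removed no gene of either list was past 2-fold. Slc1a2 was then at 0.14, Cyp2c37 at 0.37, Cps1 at 0.44 and Ctsc at 0.002.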
